A study of Mus musculus with 13 samples.

Results

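Uroguanylin and its receptor system were followed here through 3 genes: Guca2b, which encodes the precursor of uroguanylin, Guca2a, which encodes the precursor of the related peptide guanylin, and Gucy2c, which encodes their shared receptor guanylate cyclase C. They were taken as the probe sets of the array whose single gene symbol was one of these names, and each gene had 1 probe set, so 3 of 22180 genes are described. Guca2b was chosen by its measured differences between the groups, LPS above control and LPS/LPS below LPS. Those differences are therefore given as a description with no test, while Guca2a and Gucy2c were taken for their roles.

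The samples were S1 segments, the first stretch of the kidney proximal tubule, from male C57BL/6J mice, and each of the 13 samples was hybridised to 1 Affymetrix whole-transcript array. The LPS/LPS group (5 arrays), called preconditioned, had 0.25 mg/kg of lipopolysaccharide (LPS, the endotoxin of Gram-negative bacteria), followed by 5 mg/kg 24 h later. The LPS group (4 arrays) had a single dose of 5 mg/kg into the peritoneum. The control group (4 arrays) had the saline vehicle. Both LPS groups are labelled as taken 24 h after the large dose, which the labels also give as 100 ug, with the small dose as 5 ug. The animals' age is not given in the labels and the labels do not tell whether the arrays are of different animals. The p-values then cover only the spread among these arrays, part of which may be technical.

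Uroguanylin and guanylin are small cysteine-rich peptides made mainly by the intestinal epithelium, and uroguanylin is also made in the kidney. They bind guanylate cyclase C on the apical membrane and raise cyclic GMP (cGMP) in the cell, which acts through cGMP-dependent kinases, phosphodiesterases and ion transporters. In the intestine this opens the chloride channel encoded by Cftr and restrains the sodium-hydrogen exchanger encoded by Slc9a3, and in the kidney uroguanylin is known for promoting sodium excretion. In mice, renal responses to uroguanylin persist without guanylate cyclase C, so other receptors have been considered in the tubule.

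Guca2a and Guca2b lie next to each other on mouse chromosome 4, with no other protein-coding gene between them in the RefSeq annotation. The 250 bases before each annotated start are shown, because these neighbouring ligand genes had unlike values across the groups. Guca2a was at a low level, though, where a change is hard to see. Both are RefSeq sequences of build GRCm38.p6, 5′ to 3′ on the gene's own strand, at chr4:119658946-119659195 on the minus strand for Guca2b and chr4:119637482-119637731 on the plus strand for Guca2a. Capitals mark matches to the motifs named after them.
Guca2b: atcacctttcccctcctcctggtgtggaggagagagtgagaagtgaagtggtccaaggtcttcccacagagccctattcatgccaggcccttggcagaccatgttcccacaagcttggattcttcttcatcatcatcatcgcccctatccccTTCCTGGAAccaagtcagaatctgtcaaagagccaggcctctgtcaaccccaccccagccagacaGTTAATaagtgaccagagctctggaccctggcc
Guca2a: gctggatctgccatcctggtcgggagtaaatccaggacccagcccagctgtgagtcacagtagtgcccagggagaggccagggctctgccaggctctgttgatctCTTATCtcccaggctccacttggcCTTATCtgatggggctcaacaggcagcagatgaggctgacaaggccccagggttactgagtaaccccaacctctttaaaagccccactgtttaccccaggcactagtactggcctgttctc

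The capitals in the Guca2b promoter are a STAT motif (TTCNNNGAA), 98 bases before the start, and a core motif of hepatocyte nuclear factor 1 (GTTAAT), 33 bases before it. The capitals in the Guca2a promoter are 2 matches to the GATA motif (GATAAG) on the opposite strand, 145 and 121 bases before the start. Over all 32851 RefSeq promoter windows of the same length, searched on both strands, 7.02% held the STAT motif, 6.43% the hepatocyte nuclear factor 1 core and 6.55% the GATA motif. The TATA box letters TATAA (in 22.8% of windows) and the E-box CACGTG (6.02%) had no match in either printed window. The motifs did not overlap, they were chosen with the sequences in view, and a match is a string of letters, not a shown binding site.

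Values are RMA expression levels on the log2 scale, as the authors deposited them. RMA (robust multi-array averaging) merges the probes of a probe set into 1 value per array, so a difference of 1 is a factor of 2. No detection calls were used here, and a rough background reference was set from 1105 olfactory receptor genes, which a tubule is taken not to express: 95% of them had a mean level under 4.77. A total of 2207 genes had a mean above it.

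Array medians ranged from 3.56 to 3.68, and the standard deviation (SD) of the log2 values of an array from 1.28 to 1.42. The 7 arrays at or above the median SD are called wider and the 6 others narrower, a split used below for values within each class. The narrower class held LPS/LPS replicates 2, 3 and 4, LPS replicate 1, and control replicates 2 and 3. Of 12 markers of the S1 and S2 segments, 4 had means above the reference, led by Slc34a1, the sodium-phosphate cotransporter (9.22 in LPS/LPS, 10.04 in LPS and 11.23 in control). The S1 glucose transporter gene Slc5a2 had a mean of 4.27 over all arrays, below the reference. Of the 7 markers listed for the later S3 segment, 2 were above it, Acy3 with a mean of 5.50 and Atp11a with 5.41. The rest were below it, among them the S3 transporter gene Slc7a13 with a mean of 3.18. The marker levels therefore bear out proximal tubule, but do not set the labelled S1 segment apart from S2 or S3.

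Guca2b, the uroguanylin gene, was high in S1 segments after a single LPS dose and low after preconditioning and the same dose, with controls between them. The 5 LPS/LPS arrays, replicates 1 to 5, had levels of 6.53, 5.70, 7.36, 5.58 and 5.95. In LPS, replicates 1 to 4 had 8.53, 10.19, 9.34 and 9.29. In control, replicates 1 to 4 had 7.42, 8.28, 6.75 and 7.82. Every LPS array lay above every other array, the highest of the rest being control replicate 2. Of the LPS/LPS arrays, 4 lay below all control arrays, and replicate 3 lay among them. All 13 arrays were above the background reference.

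**Figure D1:**
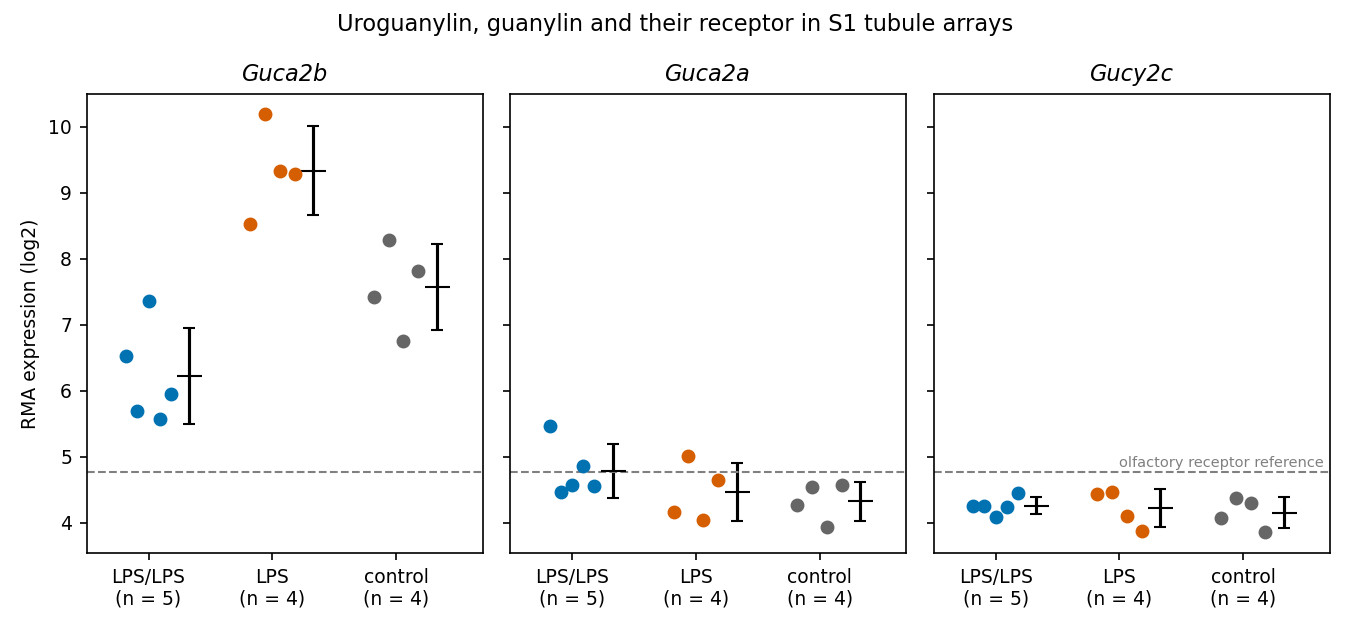
RMA expression (log2) of Guca2b, Guca2a and Gucy2c on each array (points), with the group mean and SD beside them (bars), in LPS/LPS, LPS and control. The dashed line is the olfactory receptor reference at 4.77. Guca2b averaged 6.22, 9.34 and 7.57 in LPS/LPS, LPS and control, with LPS above all other arrays and LPS/LPS overlapping control. For Guca2a and Gucy2c all groups overlapped.

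The Guca2b level averaged 9.34 ± 0.68 in LPS and 7.57 ± 0.65 in control (SD, n = 4 each), a difference of 1.77 (SE 0.42, limma), or 3.41-fold. The lowest LPS array lay 0.25 above the highest control array. Groups that do not overlap with LPS higher occurred in 1.55% of all genes tested.

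Against control, the LPS/LPS level was lower, at 6.22 ± 0.73 (SD, n = 5) in LPS/LPS and 7.57 ± 0.65 (SD, n = 4) in control. The difference was -1.34 (SE 0.40), 2.54-fold lower, and the groups overlapped by 0.61 on the log2 scale. LPS/LPS replicate 3 (7.36) lay above control replicate 3 (6.75) and just below control replicate 1 (7.42).

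The largest difference was between LPS/LPS and LPS. Guca2b averaged 6.22 ± 0.73 in LPS/LPS (SD, n = 5) and 9.34 ± 0.68 in LPS (SD, n = 4), a difference of -3.11 (SE 0.40), or 8.65-fold lower. The groups were 1.17 apart at their nearest arrays. LPS/LPS vs LPS gave non-overlapping groups with LPS/LPS lower in 1.30% of genes tested. Of all 22180 genes, 1 had a larger fall in that comparison.

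**Figure D2:**
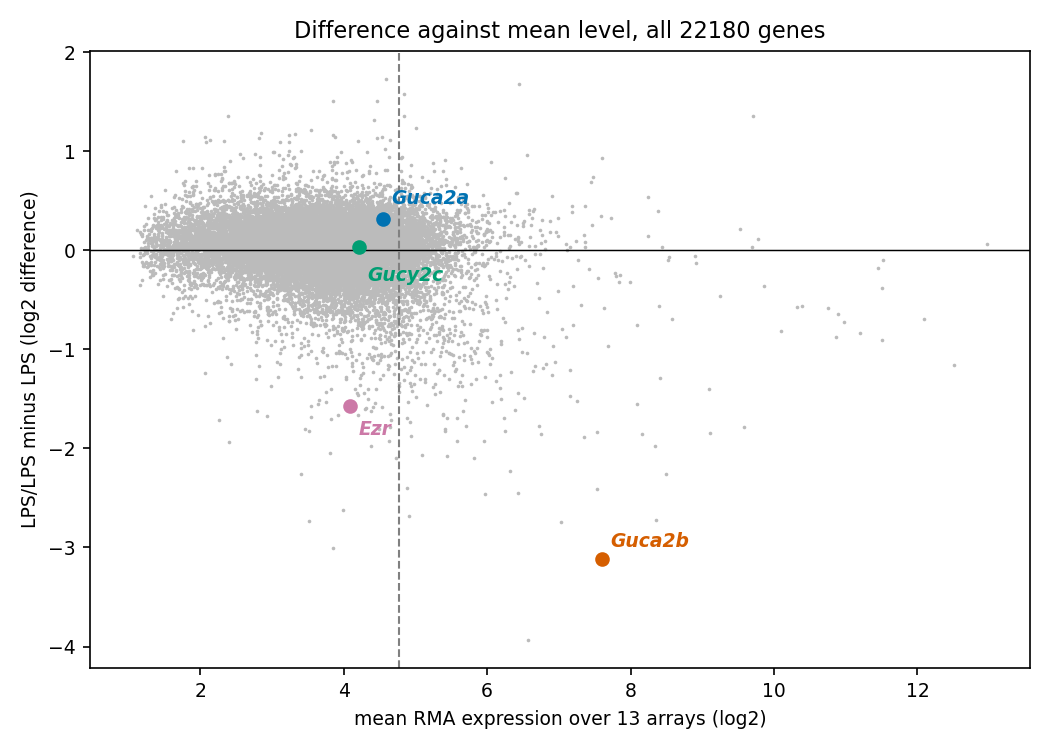
LPS/LPS minus LPS difference (log2) against the mean RMA level over 13 arrays for all 22180 genes (grey points), with Guca2b, Guca2a, Gucy2c and Ezr marked. The dashed vertical line is the reference at 4.77. Guca2b lies at -3.11, far below the bulk of genes, and Guca2a (0.32) and Gucy2c (0.04) lie within it.

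In order of level, LPS stood above control and control above LPS/LPS. The SD of Guca2b within groups was 0.69, less than the difference in any of the 3 comparisons, though LPS/LPS and control overlapped. The choice of Guca2b by its group differences favours this. Within the wider arrays the differences were 1.99 for LPS vs control, -1.38 for LPS/LPS vs control and -3.36 for LPS/LPS vs LPS. Within the narrower arrays, which hold only LPS replicate 1 of the LPS group, they were 1.01, -1.31 and -2.32 in the same order.

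Levels of other cell types and segments were set beside Guca2b because the samples were small pieces of tissue. Fewer cells of a type and less RNA per cell cannot be told apart in such samples. The summed linear level of the 12 S1 and S2 markers ran from 490 to 1371 in LPS/LPS, from 984 to 2602 in LPS and from 2312 to 3325 in control. In this sum 5 of 5 LPS/LPS arrays and 3 of 4 LPS arrays were below all control arrays, while Guca2b was below all controls on 4 of 5 LPS/LPS arrays and above them on all LPS arrays. Slc34a1 alone made up 65.0% to 77.9% of the sum in LPS/LPS, 58.0% to 81.8% in LPS and 80.4% to 89.4% in control. The mean log2 difference of these markers was -0.66 in LPS/LPS vs control, -0.59 in LPS/LPS vs LPS and -0.07 in LPS vs control, and limma called 0 of the 12 in each, with 5, 5 and 2 at an unadjusted p under 0.05 in that order, against 4.7%, 8.61% and 6.43% of all genes. The 4 of these markers with means above the reference differed by -1.41 on average in LPS/LPS vs control, close to the -1.34 of Guca2b, by -1.01 in LPS/LPS vs LPS and by -0.40 in LPS vs control. The 7 markers of the S3 segment, the last of the proximal tubule, 2 of them with means above the reference, summed to 73.8 to 137 in LPS/LPS, 114 to 305 in LPS and 132 to 456 in control. Of 14 markers of later nephron segments, from the loop of Henle to the collecting duct, 3 had means above the reference. Their summed level ran from 274 to 333 in LPS/LPS, from 275 to 869 in LPS and from 261 to 361 in control, and LPS replicate 3 was the array at 869. Without that array the Guca2b difference was 1.77 in LPS vs control and -3.11 in LPS/LPS vs LPS. Its Guca2b level of 9.34 equals the LPS mean of 9.34, so leaving it out could not move either value. The unchanged differences therefore tell nothing about the part of later segments. The 8 endothelial markers, 1 of them with a mean above the reference, summed to 143 to 163 in LPS/LPS, 148 to 184 in LPS and 128 to 143 in control, so LPS lay above control throughout. Of the 11 macrophage and monocyte markers 0 had a mean above the reference, with sums of 151 to 170 in LPS/LPS, 147 to 187 in LPS and 141 to 160 in control. Intestinal markers, relevant because the intestine makes most uroguanylin, had 1 of 7 means above the reference, with sums of 112 to 133 in LPS/LPS, 107 to 156 in LPS and 123 to 133 in control. The 1 above it was Vil1, which encodes the microvillus protein villin, found in the brush border of the proximal tubule as well, and it averaged 4.56 in LPS/LPS, 5.22 in LPS and 4.60 in control. The goblet cell mucin gene Muc2, below the reference, averaged 4.49 in LPS/LPS, 4.08 in LPS and 4.54 in control. The part of these cells in the Guca2b differences was not tested.

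Guca2a, the guanylin gene next to Guca2b, did not pass the test in any comparison. In LPS/LPS, replicates 1 to 5 had levels of 5.47, 4.46, 4.58, 4.86 and 4.55. In LPS, replicates 1 to 4 had 4.16, 5.00, 4.05 and 4.64. In control, replicates 1 to 4 had 4.26, 4.54, 3.93 and 4.57. The groups overlapped, and 2 LPS/LPS arrays, 1 LPS array and 0 control arrays lay above the background reference. Guca2a had a mean of 4.54 over all arrays, below the reference, so a change in it would be hard to see here. LPS/LPS vs control differed by 0.46 (SE 0.24, limma adjusted p = 0.987), LPS/LPS vs LPS by 0.32 (SE 0.24, adjusted p = 0.734) and LPS vs control by 0.14 (SE 0.25, adjusted p = 0.94). Its differences in the 2 LPS/LPS comparisons had the opposite sign to those of Guca2b. Without LPS/LPS replicate 1 the difference against control was 0.29.

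Gucy2c, the guanylate cyclase C gene, was below the reference on all 13 arrays, so a change in it would be hard to see here. Levels ran from 4.08 to 4.45 in LPS/LPS, from 3.87 to 4.47 in LPS and from 3.85 to 4.37 in control. Group means were 4.26 ± 0.13 in LPS/LPS (SD, n = 5), 4.22 ± 0.28 in LPS (SD, n = 4) and 4.15 ± 0.24 in control (SD, n = 4). The differences were 0.07 in LPS vs control (SE 0.16, limma adjusted p = 0.952), 0.11 in LPS/LPS vs control (SE 0.16, adjusted p = 0.991) and 0.04 in LPS/LPS vs LPS (SE 0.16, adjusted p = 0.964).

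The 12 protein-coding genes nearest to Guca2b along chromosome 4, 6 on each side, were all measured, and 3 of them had means above the reference. Of the 12, 0 passed limma's test in any comparison, with 0 at an unadjusted p under 0.05 in each. As 0 to 14 of all 22180 genes passed and 4.7% to 8.61% had an unadjusted p under 0.05, a count of 0 in 12 is near the share over all genes and does not set the neighbours apart. Their differences ran from -0.30 to 0.18 in LPS vs control, from -0.59 to 0.46 in LPS/LPS vs control and from -0.32 to 0.32 in LPS/LPS vs LPS. Hivep3, the next gene on the other side from Guca2a, differed by 0.11 in LPS/LPS vs LPS (SE 0.17). Edn2, which encodes the vasoactive peptide endothelin 2, differed by 0.02 in the same comparison (SE 0.19). These neighbours were looked at after the Guca2b values were known.

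**Figure D3:**
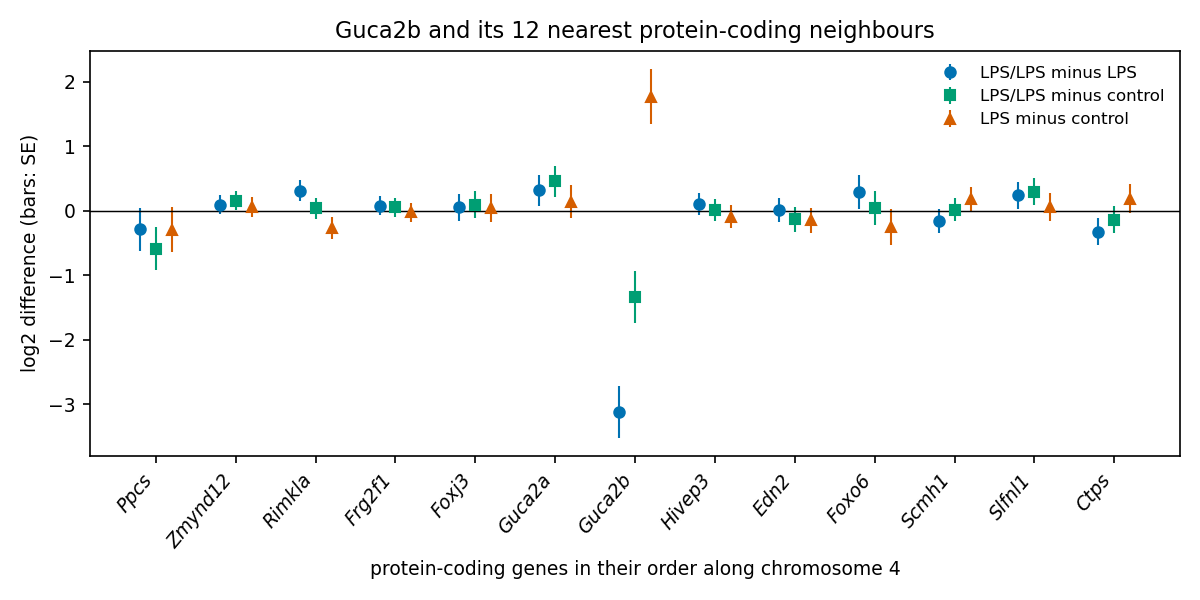
Log2 differences (points) with limma's SE (bars) for Guca2b and the 12 nearest protein-coding genes, in their order along chromosome 4, for LPS/LPS minus LPS, LPS/LPS minus control and LPS minus control. Guca2b stands at -3.11, -1.34 and 1.77, and the neighbours lie between -0.59 and 0.46.

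Genes of the wider cGMP pathway were examined as context, from lists of other peptide ligands, receptors and cyclases, nitric oxide synthases, cGMP-dependent kinases and channels, phosphodiesterases, cGMP exporters and transport proteins. Beyond the 3 above, 51 such genes were analysed, each with a probe set of 1 symbol. Of the 51, 3 had means above the reference: Npr1, Cngb1 and Slc4a4. In LPS vs control limma called 0 of the 51 genes, and 0 of all 22180 (0%), with 2 of the 51 and 1427 of all at an unadjusted p under 0.05. For LPS/LPS vs control it called 0 of the 51, against 2 (0.00902%) of all genes, with 1 of the 51 and 1042 of all at an unadjusted p under 0.05. For LPS/LPS vs LPS it called 1 of the 51, which was lower, against 14 (0.0631%) of all genes, all of them lower, with 2 of the 51 and 1910 of all at an unadjusted p under 0.05. Those 14 include Guca2b, which was chosen by this very difference, so its place among them is no test of it. The median difference over the 51 genes was -0.02, 0.02 and 0.04 in the 3 comparisons in that order, against -0.02, 0.03 and 0.05 over all genes.

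**Figure D4:**
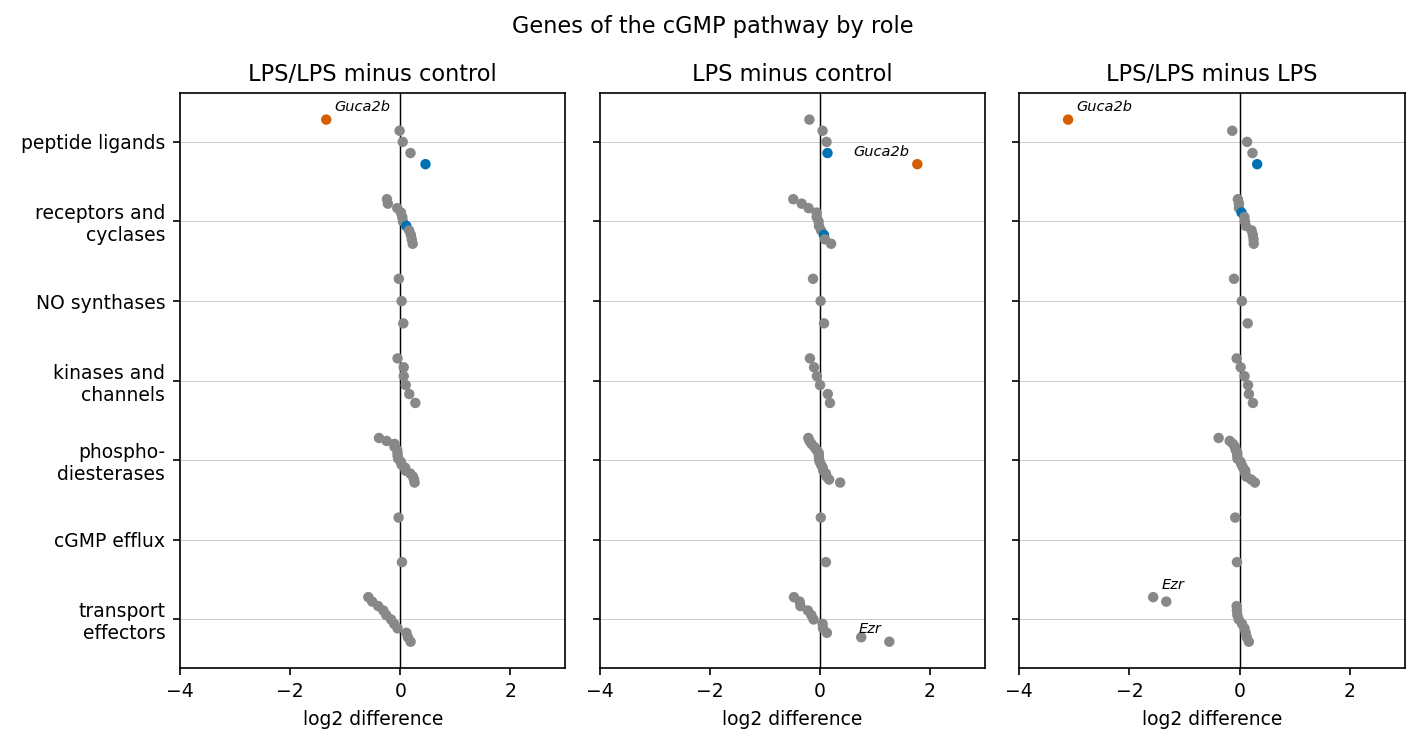
Log2 differences of the cGMP pathway genes (points) by role, in LPS/LPS minus control, LPS minus control and LPS/LPS minus LPS, with Guca2b in orange and Guca2a and Gucy2c in blue. Apart from Guca2b, most points gather near 0. Ezr stands out at 1.26 in LPS minus control and -1.57 in LPS/LPS minus LPS, and Slc4a4 lies at 0.75 and -1.33.

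Among transport proteins, Ezr was the called gene. It encodes ezrin, which ties membrane proteins of the brush border to actin and binds the scaffold that holds the sodium-hydrogen exchanger. Ezr levels in LPS/LPS replicates 1 to 5 were 3.76, 3.61, 3.40, 3.23 and 3.52. In LPS, replicates 1 to 4 had 4.48, 4.75, 5.68 and 5.38. In control, replicates 1 to 4 had 3.88, 4.28, 3.36 and 3.72. Every LPS array lay above every other array, as for Guca2b, which was chosen by such differences. Non-overlapping groups occurred in 1.55% of all genes with LPS above control, and in 1.30% with LPS/LPS below LPS. Only LPS replicates 3 and 4 had Ezr levels above the background reference, and below it the size of a change is uncertain. Ezr fell by 1.57 in LPS/LPS vs LPS (SE 0.24, limma adjusted p = 0.0337). It differed by 1.26 in LPS vs control (SE 0.25, adjusted p = 0.15) and by -0.31 in LPS/LPS vs control (SE 0.24, adjusted p = 0.987). The call in LPS/LPS vs LPS was lost without any 1 of 7 arrays: control replicate 4 (adjusted p = 0.056), LPS replicates 3 and 4 (0.0763 and 0.124), and LPS/LPS replicates 2, 3, 4 and 5 (0.096, 0.111, 0.119 and 0.0648). In LPS vs control it passed without LPS replicate 1 (1.46, adjusted p = 0.0441), and over all settings tried there its adjusted p ran from 0.0441 to 0.525.

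Slc4a4, the sodium-bicarbonate cotransporter of the basolateral membrane and also one of the S1 and S2 markers, had levels of 5.43, 5.02, 4.12, 5.05 and 5.55 in LPS/LPS replicates 1 to 5. It had 5.18, 6.46, 6.80 and 7.01 in LPS replicates 1 to 4, and 5.84, 5.55, 4.94 and 6.12 in control replicates 1 to 4. LPS replicates 2, 3 and 4 were above all other arrays, and LPS replicate 1 lay among the rest. Its difference of -1.33 in LPS/LPS vs LPS did not pass (SE 0.37, limma adjusted p = 0.322), but it passed without LPS replicate 1 (-1.73, adjusted p = 0.0363). In LPS vs control it differed by 0.75 (SE 0.39, adjusted p = 0.774).

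The known transport targets of the intestinal pathway did not pass. Slc9a3, the sodium-hydrogen exchanger gene, averaged 3.98 ± 0.20 in LPS/LPS (SD, n = 5), 4.02 ± 0.65 in LPS (SD, n = 4) and 4.49 ± 1.14 in control (SD, n = 4). Its controls were spread from 3.09 to 5.80. Slc9a3r1, which encodes a scaffold of that exchanger, differed by -0.40 in LPS/LPS vs control (SE 0.19, limma adjusted p = 0.987) and by -0.35 in LPS vs control (SE 0.20, adjusted p = 0.793). Cftr, the chloride channel gene, had a mean of 2.60 over all arrays, well below the reference, and the same value of 2.57 on all 4 LPS arrays. Such repeats are common in the deposited table: the same value to all printed decimals stands on 3 or more arrays for 25 of the 51 pathway genes, Slc9a3 among them (4.10 on 3 arrays), and for 29.2% of all genes, but for 0 of the 3 members. The reason is not given in the sources used here, and repeats within a group narrow its spread. The Cftr difference in LPS/LPS vs control was 0.19 (SE 0.12, adjusted p = 0.987).

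Among the other peptide ligands, the natriuretic peptide genes Nppa, Nppb and Nppc had mean levels between 3.71 and 4.61, below the reference, and 0 of the 3 were called. The differences of Nppb, the brain natriuretic peptide gene, were -0.19 in LPS vs control (SE 0.16), 0.04 in LPS/LPS vs control (SE 0.15) and 0.23 in LPS/LPS vs LPS (SE 0.15). Nppa differed by 0.12 in LPS vs control and by -0.13 in LPS/LPS vs LPS, and Nppc by 0.19 in LPS/LPS vs control.

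Among 10 other receptors and cyclases 0 were called. Npr1, the receptor of atrial and brain natriuretic peptides, had levels of 4.77 ± 0.24 in LPS/LPS (SD, n = 5), 4.80 ± 0.20 in LPS (SD, n = 4) and 4.83 ± 0.16 in control (SD, n = 4), with the groups overlapping. Gucy1b1, the beta subunit of the soluble cyclase that senses nitric oxide, had the lowest p of the role in LPS vs control, with means of 2.86 in LPS and 3.34 in control and no overlap, as for 1.60% of all genes in that direction. It differed by -0.48 (SE 0.21, limma adjusted p = 0.743). Its partner Gucy1a1 differed by -0.33 in the same comparison (SE 0.19, adjusted p = 0.789). In the LPS/LPS comparisons the leading members were Gucy2g (0.23 against control and 0.24 against LPS), Gucy2d (0.19 against control) and Gucy1a2 (0.22 against LPS).

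The 3 nitric oxide synthase genes had differences between -0.12 and 0.15 over the 3 comparisons, and 0 were called. All 3 were below the background reference on every array, so a change in them would be hard to see here. Nos2, the inducible enzyme, differed by 0.08 in LPS vs control, by -0.03 in LPS/LPS vs control and by -0.10 in LPS/LPS vs LPS. Nos1 differed by 0.15 in LPS/LPS vs LPS and Nos3 by 0.06 in LPS/LPS vs control.

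Of the 6 kinase and channel genes 0 were called. Prkg1 and Prkg2, the cGMP-dependent kinases, had mean levels of 3.04 and 3.80 over all arrays. Prkg1 differed by -0.18 in LPS vs control and by 0.24 in LPS/LPS vs LPS, and Prkg2 by 0.00 and -0.05 in these comparisons. The cyclic nucleotide-gated channel gene Cnga3 had the lowest p of this role in LPS/LPS vs control, with a difference of 0.27 (SE 0.12, limma adjusted p = 0.987). Cngb1 differed by 0.16 in the same comparison and Cnga1 by 0.15 in LPS/LPS vs LPS.

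Of the 16 phosphodiesterase genes, which encode enzymes that break down cyclic nucleotides, 0 were called, and 0 had a mean above the reference. Pde5a, specific for cGMP, had a mean of 2.55 and differed by -0.21 in LPS vs control (SE 0.21), by -0.25 in LPS/LPS vs control (SE 0.20) and by -0.04 in LPS/LPS vs LPS (SE 0.20). Pde1b differed by 0.28 in LPS/LPS vs LPS (SE 0.14, limma adjusted p = 0.597), with groups that did not overlap, as for 1.10% of all genes in that direction. Pde10a differed by -0.39 in LPS/LPS vs control and by -0.38 in LPS/LPS vs LPS, and Pde1a by 0.37 and Pde2a by -0.19 in LPS vs control. The exporter genes Abcc4 and Abcc5, whose products carry cyclic nucleotides out of cells, differed by between -0.08 and 0.11 over the 3 comparisons.

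The genes whose levels followed Guca2b most closely were ranked by Pearson's r of the log2 values over the 13 arrays, among 1731 genes with means above the reference. All points share the arrays, the groups fall apart in Guca2b itself, and the values are descriptions with no p. The highest were Malat1, an abundant nuclear noncoding RNA (r = 0.87), Glul, glutamine synthetase (0.85), and Fth1, the ferritin heavy chain (0.84). Next came the small nuclear RNA Rn7sk (0.84), the chaperone gene Hspa5 (0.84), Mrpl24, a mitochondrial ribosomal protein gene (0.83), Mif (0.83) and Grina (0.83). Spearman's rho for these ranged from 0.77 to 0.91, and 4 of the 8 were also among the 8 highest by rho. Without LPS replicates 2 and 3, the 2 arrays farthest from the Guca2b median, r ranged from 0.70 to 0.86. The lowest r were those of Chst5 (-0.73), Esrra (-0.73), Mtfp1 (-0.73) and Thap1 (-0.73).

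**Figure D5:**
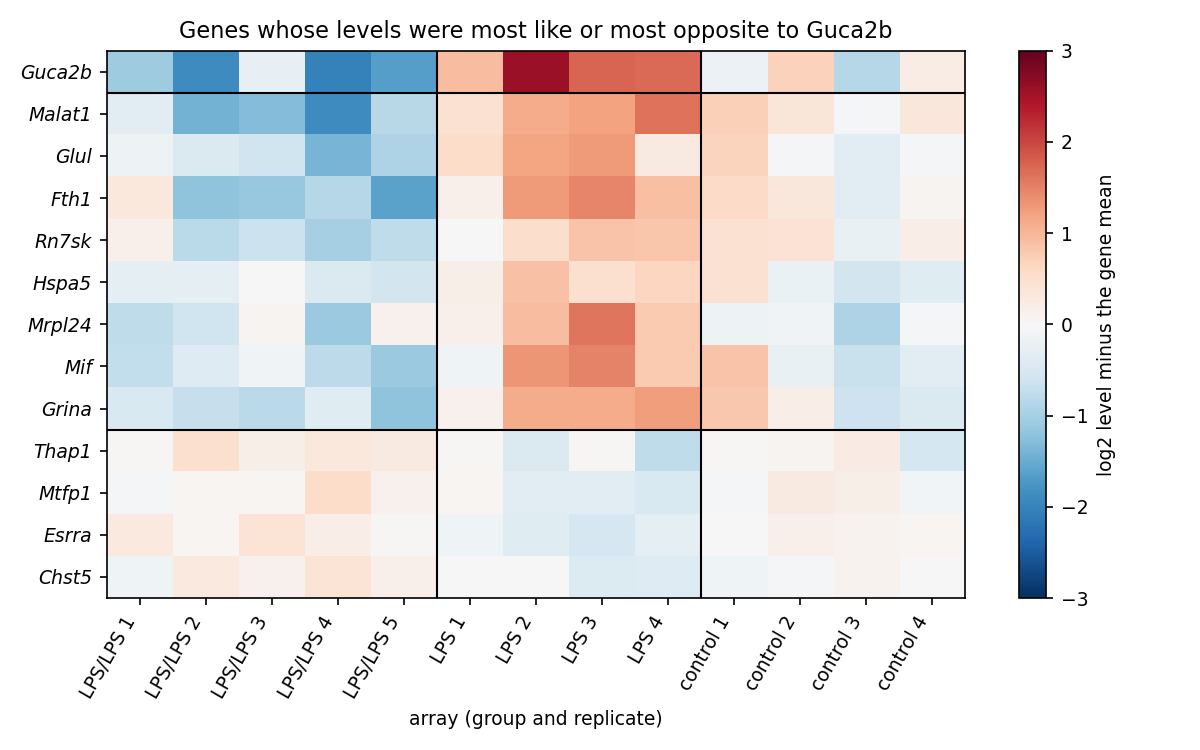
Log2 level minus the gene's mean over 13 arrays (colour, red higher and blue lower) for Guca2b, the 8 genes with the highest Pearson's r to it and the 4 with the lowest, by array in LPS/LPS, LPS and control. LPS replicates 2, 3 and 4 are red and most LPS/LPS arrays blue for the 8 genes, with smaller amplitudes than for Guca2b.

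The likeness lay between the groups more than within them, which the choice of genes favours. Guca2b was chosen by its group differences, and the 8 genes by r over all arrays, which includes those differences. When each gene's group means were taken off first, r with Guca2b for the 8 genes ranged from 0.31 to 0.60, and 0 of them stayed among the 8 highest. The highest within-group r then belonged to Fam32a (0.74), Gcsh (0.74), Acot12 (0.73), Psenen (0.73) and Naxd (0.71). The amplitudes also differed: Malat1 differed by -2.26 in LPS/LPS vs LPS, the largest of the 8, and Hspa5 by -0.85, against -3.11 for Guca2b. Guca2a had an r with Guca2b of -0.11 over the 13 arrays and 0.52 within groups, and Gucy2c of -0.13 and -0.14.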

How the data were processed

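Gene expression was measured in S1 kidney tubule samples on 13 arrays. RNA came from a PicoPure extraction, per the labels' protocols, and 2 ng of total RNA was labelled with the Affymetrix WT Pico kit. The authors deposited log2 expression values, and the submitters' processing notes name RMA and Partek 6.6. The sources used here do not name the background step, the normalization or the genome build. Background left in RMA values would compress changes of dim genes.

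Of 41345 probe sets, 23521 had 1 symbol in the platform annotation, 1814 had several and 16010 had none, and only the first were used. Where a gene had several probe sets, the one with the highest mean was used, which gave 22180 genes. All arrays entered 1 limma 3.58.1 fit (R 4.3.3, lmFit and eBayes, no covariates), with Benjamini-Hochberg adjustment over all genes and a threshold of 0.05. The fit was tested on simulated data. Replicate numbers in the labels were not used to pair the arrays in the main fit. Settings varied were the samples fitted, a replicate block, array weights, moderation, scaling, spread class, probe set choice, a filter on low values and each array left out.

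The members and lists were chosen with earlier results of these data known. The rule for named genes takes the 3 members, every called pathway gene, the 2 members of each role with the lowest p, a few fixed pathway genes, and the 8 highest and 4 lowest correlations with Guca2b plus the 5 highest within groups. The last leaves out predicted genes, receptor families and small RNAs by name prefixes, which Rn7sk does not carry.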

Additional observations from a re-analysis of the deposited data

Results flagged for a closer look

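In 129 combinations of a named or neighbouring gene and a group, 7 held an array that stood far from the others of its group, and chance gives about 1 in 20. None of the 7 concerned Guca2b, Guca2a or Gucy2c. The arrays standing high were LPS/LPS replicate 3 for Nppa (3.89, next 3.79), LPS/LPS replicate 5 for Nppb (4.13, next 3.79) and LPS/LPS replicate 2 for Pde2a (4.50, next 4.22). Those standing low were LPS replicate 3 for Nppb (3.15, next 3.68), LPS replicate 2 for Pde1b (2.54, next 2.73), LPS replicate 4 for Ppcs (4.41, next 4.94) and control replicate 4 for Cftr (2.33, next 2.57). Of the 7, 6 concern genes with the same deposited value on 3 or more arrays, Pde1b being the exception, and such repeats narrow the range that an array is set against. All but Ppcs lie below the background reference on every array.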

How the results depend on the processing

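The Guca2b differences kept their sign and moved by less than the SD within groups under all 10 other settings and with any array left out: 1.62 to 2.02 in LPS vs control, -1.39 to -1.28 in LPS/LPS vs control and -3.35 to -2.97 in LPS/LPS vs LPS. With 1 array left out they ran from 1.49 to 2.04, from -1.63 to -1.11 and from -3.40 to -2.83. Part of these checks could not move a difference. Moderation, probe set choice, the filter on low values and fitting only the 2 groups leave the group means of Guca2b unchanged. So does leaving out an array of the group not compared. In LPS vs control the value was 1.77 under each of these and with the replicate block. Values within the wider or narrower arrays were added after seeing the data, and within the narrower ones Guca2b moved to 1.01 in LPS vs control and -2.32 in LPS/LPS vs LPS.

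Guca2a and Gucy2c did not pass under any setting, and small differences changed sign. Guca2a in LPS vs control was -0.0712 within the narrower arrays and ran from -0.0424 to 0.28 with 1 array left out. Gucy2c in LPS vs control ran from -0.0246 to 0.19 with 1 array left out. In LPS/LPS vs control it was 0.39 within the wider and -0.14 within the narrower arrays. In LPS/LPS vs LPS it was -0.0114 with the replicate block, -0.00981 with arrays centred on the median and -0.0116 with the spread class as a block. It was -0.0719 with array weights, -0.24 within the narrower arrays, and -0.0792 to 0.12 with 1 array left out. With only genes above the background reference, neither gene nor Ezr could be fitted, since their means lie below it.

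Genes called in LPS vs control were 0, but 3 with the replicate block, 30 with array weights, 7 with trend and robust moderation, 7 with quantile normalization, 10 with arrays scaled to 1 SD, 3 among genes above the reference, and 0 to 24 with 1 array left out. The most, 24, came without LPS replicate 1. In LPS/LPS vs control they were 2, but 0 with only the 2 groups or the replicate block, 4 with quantile normalization or the spread class as a block, 1 with arrays centred on the median, 6 with arrays scaled to 1 SD, and 0 to 3 with 1 array left out. In LPS/LPS vs LPS they were 14, but 2 with only the 2 groups, 4 with the replicate block, 41 with array weights, 22 with arrays scaled to 1 SD, and 5 to 96 with 1 array left out, with 96 without LPS replicate 1. cGMP pathway genes called were 0 to 1 in LPS vs control with 1 array left out. In LPS/LPS vs LPS they were 0 with only the 2 groups, the replicate block or genes above the reference, and 0 to 2 with 1 array left out. The Ezr call there was lost with only the 2 groups (adjusted p = 0.124) and with the replicate block (adjusted p = 0.223). The cause of these moves was not tested.

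Same-numbered arrays of different groups had correlations of their deviations from -0.35 to 0.22 over 12 pairs, and 2 of 13 arrays matched best with their own number. Whether the numbers mark a pairing cannot be told from this. The number of arrays and the dim signal of 48 of the 51 other pathway genes limit what could be detected.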

Other observations

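The Guca2b level was also taken relative to the tubule's own markers, as its log2 level minus the mean log2 level of the 12 S1 and S2 markers on the same array. This was chosen after seeing the data and is a description with no test, and only its differences between groups can be read, since it sets several probe sets against each other. It differed by 1.84 in LPS vs control, by -0.69 in LPS/LPS vs control and by -2.52 in LPS/LPS vs LPS. The 4 LPS arrays again lay above all others, and 4 of the 5 LPS/LPS arrays lay below all controls. Of the 12 markers 8 had means below the background reference. Relative to the 4 above it, Guca2b differed by 0.07 in LPS/LPS vs control, by 2.17 in LPS vs control and by -2.10 in LPS/LPS vs LPS. Among these relative values, the LPS/LPS vs control difference was thus seen only with the full list, while the Guca2b level itself differed by -1.34. With these 4 markers all 4 LPS arrays lay above all controls, and 4 of the 5 LPS/LPS arrays lay below all LPS arrays. Of the LPS/LPS arrays 0 lay below all controls and 1 lay above them. The SDs were then 1.01 in LPS/LPS, 0.87 in LPS and 0.63 in control. Relative to all 12, the LPS/LPS vs control value was about as large as the SDs within these groups, 0.83 in LPS/LPS (n = 5) and 0.60 in control (n = 4).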
